A study of Rattus norvegicus with 8 samples.

Results

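Genes that were almost without RNA but carried the promoter mark H3K4me3 were examined in vascular smooth muscle cells. The set was chosen by a rule on measured values. It takes rows of the RNA table with a curated messenger RNA accession, a usable estimate, an FPKM under 0.1 in control and after AngII, and locus coordinates that no other row shares. An H3K4me3 region within 1 kb of the locus in both conditions was also required. FPKM is the number of sequenced fragments scaled to transcript length and library size. The table lists 30937 loci, of which 15318 had such an accession, a usable estimate and coordinates of their own, and 4110 of these were silent. H3K4me3 lay at 1176 of the silent genes in both conditions, which is 28.6% (95% exact binomial interval 27.2 to 30.0). The comparison group is the 2780 silent genes with no H3K4me3 region within 1 kb in either condition. In between stood 86 genes marked in control only and 68 marked after AngII only.

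The cells were primary vascular smooth muscle cells grown out of the thoracic aorta of Sprague-Dawley rats. Control cells had no treatment, and the other cells received 0.1 uM angiotensin II (AngII), a peptide hormone that contracts vessels, for 3 h. The labels mention removal of serum overnight for the AngII cells and do not say whether control cells had it, so serum removal and AngII cannot be told apart. Each condition had 1 library for RNA, 1 for H3K4me3 and 1 for H3K36me3, so there are no replicates, no difference between conditions has a replicate check, and no test was made. Input DNA of both conditions was not used here.

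H3K4me3 is deposited around transcription start sites by SET1 and MLL enzymes. CpG islands, stretches rich in CG that lack DNA methylation, recruit these enzymes, so the mark is found at many promoters whose gene makes little RNA. Developmental regulators are the textbook example, since their promoters often hold H3K4me3 together with the Polycomb mark H3K27me3, a state called bivalent. H3K36me3 is laid down behind elongating RNA polymerase by SETD2 and therefore lies over transcribed gene bodies. H3K27me3 and DNA methylation were not analysed here.

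Promoter sequences give a view of the genes at issue. Each is the 250 bases before the RefSeq transcription start in assembly GRCr8, 5′ to 3′ along the gene, with every CG in capitals. Over 33469 promoters of that table the same window held a median of 5 CG (quartiles 2 and 15), and 92.2% held at least 1. CG reads the same on both strands. The first 3 belong to the named members with the widest mark that the promoter table holds: Kiss1r (chr7:10439425-10439674, minus strand), Ushbp1 (chr16:18101868-18102117, minus strand) and Six3 (chr6:14796257-14796506, minus strand).
Kiss1r: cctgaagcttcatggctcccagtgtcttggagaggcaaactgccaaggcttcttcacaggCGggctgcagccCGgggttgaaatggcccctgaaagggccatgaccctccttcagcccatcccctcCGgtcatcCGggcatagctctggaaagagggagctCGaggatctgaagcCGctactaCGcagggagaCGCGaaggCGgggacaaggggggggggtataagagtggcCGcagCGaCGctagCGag
Ushbp1: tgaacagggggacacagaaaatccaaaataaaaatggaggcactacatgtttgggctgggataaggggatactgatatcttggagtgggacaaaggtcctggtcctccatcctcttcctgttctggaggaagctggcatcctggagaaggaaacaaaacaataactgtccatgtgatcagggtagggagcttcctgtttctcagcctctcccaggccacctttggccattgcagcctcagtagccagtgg
Six3: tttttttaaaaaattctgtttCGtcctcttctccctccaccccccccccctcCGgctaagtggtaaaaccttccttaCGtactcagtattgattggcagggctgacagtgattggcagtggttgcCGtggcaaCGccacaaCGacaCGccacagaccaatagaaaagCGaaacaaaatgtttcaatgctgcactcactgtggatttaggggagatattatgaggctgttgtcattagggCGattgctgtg
Kcnn3 (chr2:177234090-177234339, plus strand) and Tmem130 (chr12:14950534-14950783, plus strand) were shown as the members nearest the median CpG ratio of members with a sequence. The ratio is the number of CG over the number that the C and G content would give by chance.
Kcnn3: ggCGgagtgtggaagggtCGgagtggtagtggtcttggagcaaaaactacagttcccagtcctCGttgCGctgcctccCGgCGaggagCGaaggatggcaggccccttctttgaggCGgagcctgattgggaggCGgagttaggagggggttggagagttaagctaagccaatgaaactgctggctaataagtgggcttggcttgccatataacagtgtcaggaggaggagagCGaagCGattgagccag
Tmem130: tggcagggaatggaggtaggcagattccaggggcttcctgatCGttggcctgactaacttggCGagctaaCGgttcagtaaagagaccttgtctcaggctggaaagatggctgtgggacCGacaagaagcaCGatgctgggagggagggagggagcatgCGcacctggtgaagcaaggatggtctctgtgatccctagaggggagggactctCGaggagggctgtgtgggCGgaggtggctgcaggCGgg
Aqp6 (chr7:132610819-132611068, plus strand), Insc (chr1:178427173-178427422, plus strand) and the olfactory receptor gene Or4a77b (chr3:96131453-96131702, minus strand) stand for silent genes without the mark in the same way.
Aqp6: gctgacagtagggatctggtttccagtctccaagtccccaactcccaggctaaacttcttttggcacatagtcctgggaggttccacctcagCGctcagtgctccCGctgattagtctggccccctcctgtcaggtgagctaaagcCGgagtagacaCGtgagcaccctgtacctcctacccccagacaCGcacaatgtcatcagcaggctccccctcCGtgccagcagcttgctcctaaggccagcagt
Insc: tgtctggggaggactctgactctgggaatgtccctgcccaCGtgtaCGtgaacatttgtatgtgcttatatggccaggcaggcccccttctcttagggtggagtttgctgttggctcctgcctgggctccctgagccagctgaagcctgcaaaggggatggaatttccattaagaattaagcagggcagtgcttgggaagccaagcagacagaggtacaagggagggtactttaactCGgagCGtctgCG
Or4a77b: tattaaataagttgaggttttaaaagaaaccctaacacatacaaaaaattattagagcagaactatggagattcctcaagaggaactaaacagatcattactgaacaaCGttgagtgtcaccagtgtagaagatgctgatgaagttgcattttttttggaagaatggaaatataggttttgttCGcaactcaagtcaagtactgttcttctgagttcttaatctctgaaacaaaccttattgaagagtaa
The last pair was picked after its values were seen, as 2 neural regulators of the same protein family of which Olig2 (chr11:43961335-43961584, plus strand) was marked and Neurod1 (chr3:84770455-84770704, minus strand) was not.
Olig2: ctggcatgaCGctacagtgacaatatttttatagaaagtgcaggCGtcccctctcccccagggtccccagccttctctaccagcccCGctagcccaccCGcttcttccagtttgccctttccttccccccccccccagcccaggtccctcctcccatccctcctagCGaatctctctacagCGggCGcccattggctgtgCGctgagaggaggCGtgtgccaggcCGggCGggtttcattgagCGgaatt
Neurod1: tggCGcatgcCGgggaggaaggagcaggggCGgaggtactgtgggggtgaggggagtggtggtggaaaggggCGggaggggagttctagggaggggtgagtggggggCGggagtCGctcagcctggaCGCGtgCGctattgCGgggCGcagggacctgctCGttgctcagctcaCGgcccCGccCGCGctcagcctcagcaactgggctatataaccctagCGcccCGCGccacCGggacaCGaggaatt

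The 5 printed windows of members chosen by rule held 14 CG in Kiss1r, 0 in Ushbp1, 9 in Six3, 11 in Kcnn3 and 9 in Tmem130. Aqp6 held 6, Insc 5 and Or4a77b 2. Olig2 held 12 and Neurod1 21, so the unmarked gene of this pair held more CG. A summary of CpG content over the whole set is void, because only 808 of 1176 members (68.7%) and 2128 of 2780 unmarked genes (76.5%) had a promoter in the table, and 80% was required. The medians below are for lists with that coverage on both sides. Among basic helix-loop-helix factors the median CpG ratio of the 300-base window (250 before and 50 after the start) was 0.559 over 13 of 16 members and 0.374 over 13 of 14 unmarked genes. T-box factors had 0.556 over 5 members and 0.596 over 3 unmarked genes. For cytokines and chemokines the medians were 0.285 and 0.242, for lymphocyte and killer cell receptors 0.378 and 0.212, and for serine proteases and serpins 0.237 and 0.242. Skeletal and cardiac muscle markers had 0.580 over 2 members and 0.208 over 7 unmarked genes, and in the vomeronasal, taste and trace amine list the 1 member had 0 against 0.158. Of the lists drawn up after the members had been seen, aquaporins and claudins had 0.731 and 0.299, and synaptic adhesion and scaffold genes 0.551 and 0.545. Unmarked olfactory receptors, 458 of 545 with a sequence, had a median of 0.123, and the placental prolactin family 0.0923.

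The cell type label was checked on marker genes. Of 9 smooth muscle markers with a locus, 8 had an FPKM of 1 or more, with a median of 48.4 in control and 43.9 after AngII. Endothelial markers reached that level in 1 of 9 genes (summed FPKM 2.93 and 2.58, 5 listed at 0 in both libraries), neuron and Schwann cell markers in 4 of 12 (summed 16.6 and 13.9, 3 at 0), and leukocyte markers in 3 of 11 (summed 170.2 and 141.9, 6 at 0). Skeletal and cardiac muscle markers did so in 3 of 17 (summed 23.2 and 39.0, 3 at 0), and hepatocyte markers in 0 of 11 (summed 0.304 and 0.162, 9 at 0). Their part in the marks described here was not tested. In bulk libraries fewer cells of a type and less RNA per cell cannot be told apart, and neither can a mark on all cells and one on some of them.

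Silent genes differed in how often they were listed at 0. Among the members 506 (43.0%) were listed at exactly 0 FPKM in both libraries, against 2289 (82.3%) of the unmarked silent genes. An exact 0 in such a table can be a failed estimate, so it is given as listed. Olfactory receptors made up 524 of the 2289, and the part of gene length in this difference was not tested. The deposited upper bounds were under 1 FPKM in both libraries for all 1176 members and all 2780 unmarked silent genes. They are therefore no check on silence beyond the rule's own FPKM limit. Marked loci were also longer, with a median of 27189 bp against 6143 bp for unmarked silent genes. The share of silent genes with the mark was 13.6% for loci under 5 kb, 29.9% from 5 to under 20 kb, 38.3% from 20 to under 60 kb and 60.5% at 60 kb or more. Over the 15318 genes of all levels 64.6% were marked in both conditions, 46.2% of the 2416 genes between 0.1 and 1 FPKM, and 86.4% of the 8792 genes of 1 FPKM or more.

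Silent genes lay on either side of the rule's limits without a gap. Cbs, the cystathionine beta-synthase of sulphur amino acid metabolism, stood just inside with 0.0146 FPKM in control and 0.0997 after AngII. Kcng2 and Emilin3 were inside with 0.0996 and 0.0995 in control. Just outside were Cfap52 with 0.1002 and Hhex with 0.1012 in control, and Zfp385b with 0.1012 after AngII. On the distance limit, Hsd17b14 was kept with a gap of 999 bp in control, Bpifc with 997 bp after AngII and Kctd16 with 983 bp in control. Cd4 with 1009 bp, Kcna1 with 1012 bp and Dnajc5g with 1017 bp, all in control, fell out. Most members were far from that limit, as a region touched the locus itself in 1111 of 1176 in control and in 1114 after AngII.

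Transcription factors of embryonic patterning were marked more often than silent genes as a whole, though shares differed between their families. Of 78 silent homeobox genes outside the Hox clusters, 60 carried H3K4me3 in both conditions (76.9%, 66.0 to 85.7), beside 28.6% of all silent genes. GATA, Zic, Gli and related zinc finger factors were marked in 12 of 16 (75%), basic helix-loop-helix factors in 16 of 32, T-box factors in 5 of 8, Hox factors in 3 of 6, forkhead factors in 3 of 5 and Sox factors in 3 of 5. Together these 7 lists held 150 silent genes, of which 102 were marked (68.0%, 59.9 to 75.4). H3K4me3 is part of the rule, and the gene lists were chosen with earlier results of these data known. Family shares therefore describe the set and were not tested. Intervals on shares cover counting error only.

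**Figure D1:**
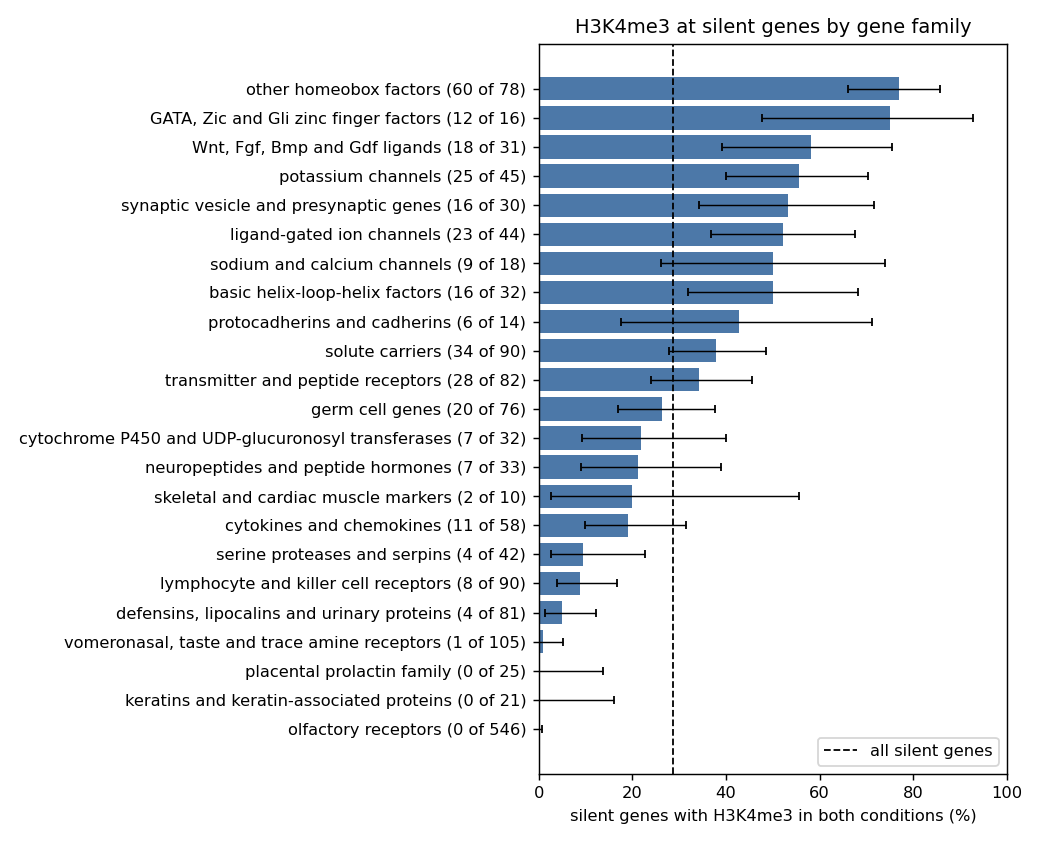
Percent of silent genes with H3K4me3 in both conditions for each gene list with 10 or more silent genes. Bars give the percent, whiskers the 95% exact binomial interval, and the dashed line 28.6% of all 4110 silent genes; homeobox factors are at the top with 60 of 78 and olfactory receptors at the bottom with 0 of 546.

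Homeobox members are known from several organs. Eye and forebrain factors among them were Six3, Six6, Rax, Vax1, Otx1, Pax6 and Nkx2-1, and spinal cord factors were Pax3, Lhx1, Lhx5, Nkx2-2, Nkx6-1, Dbx1 and Evx1. Factors of other organs included Nkx2-5 of the heart, Pitx1 of the hindlimb, Tlx1 of the spleen and Prox1 of lymphatic endothelium. Six3, needed for the forebrain, read 0.0658 FPKM in control and 0.0646 after AngII, with upper bounds of 0.159 and 0.156. Its locus (rn4 chr6:9015373-9019374) lay wholly under a single H3K4me3 region of 12546 bp in control. After AngII a single region of 11680 bp covered most of the locus and stopped short of its right end. There was no H3K36me3 in either condition. The nearest locus of FPKM 1 or more was Six2, 75.3 kb away. Otx1 (chr14:102721412-102724748), another forebrain factor, was listed at 0 in both libraries under regions of 14382 bp and 12800 bp. Unlike Six3 it was covered by H3K36me3 over 100% of its length in both conditions, and its H3K4me3 region also came within 1 kb of an unnamed locus of 7.70 FPKM in control that lay 5.33 kb away.

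Six3 and Otx1 were at the top of the family. Over the 60 homeobox members the widest region had a median of 2983.5 bp in control (612 to 14382) and 2640 bp after AngII (480 to 12800), above the 1683 bp and 1600 bp of all members. Pax6, the regulator of eye development, read 0.0319 and 0 FPKM, and its widest region was 4437 bp in control and a separate one of 3040 bp after AngII. Nkx2-5 had 2754 bp and 3200 bp at 0 and 0.0305 FPKM, and Nkx2-1, a factor of lung and thyroid, also had 2754 bp and 3200 bp while listed at 0 in both. Tlx1 stood lower, with 1683 bp in control and a separate region of 800 bp after AngII. The deposited scores of the Nkx2-5 regions were low, at percentiles 11.6 and 0.863 of their lists, against 40.3 and 31.8 for Nkx2-1. H3K36me3 was at 6 of the 60 in control and 7 after AngII, where 25.6% and 34.9% of all members had it, and 6 had an expressed locus within 5 kb, against 22.2% of all members. Homeobox members were also short, with a median locus of 5149.5 bp, and members under 5 kb had H3K36me3 in 11.7% in control and 26.0% after AngII. H3K36me3 was present at 1 of 13 unmarked homeobox genes in each condition.

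The 13 unmarked homeobox genes included Otx2, Pax7, Nanog and Pou5f1, the latter a pair of pluripotency factors. Pax7, the marker of muscle satellite cells, read 0.0236 FPKM in control and 0 after AngII. Pou5f1 lay on an unlocalised contig, where no region was listed at all. Irx1 had 2 loci, a marked locus on chromosome 17 and an unmarked copy on an unplaced contig. The listed regions lay on 21 chromosomes only, and 241 silent loci were elsewhere and could not be marked. Without them 30.4% of 3869 silent genes were members.

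Among basic helix-loop-helix factors the family split evenly. Marked were the proneural and glial factors Atoh1, Atoh7, Neurod2, Neurod6, Olig1, Olig2, Nhlh2 and Bhlhe22, the blood factors Tal1 and Tal2, and the mesoderm factors Mesp1, Mesp2, Tcf15 and Tcf21. Atoh1, a factor of cerebellar granule neurons and hair cells, had regions of 2601 bp and 2880 bp at 0.0192 and 0 FPKM. Olig2, which specifies oligodendrocytes, had 2907 bp and 1600 bp at 0 FPKM. The deposited scores of its regions were low, at percentiles 8.71 and 3.82 of their lists. Tal1 had 4131 bp and 2240 bp at 0.0611 and 0.0403 FPKM. Unmarked were all 4 skeletal muscle determination factors, Myod1, Myog, Myf5 and Myf6, with Neurod1, Neurod4, Neurog1, Neurog3, Ptf1a, Olig3 and Hand1. Myod1 read 0 and 0.0203 FPKM and Myog 0.0269 and 0. These names in both groups were given after their values were seen.

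Hox genes encode position along the body axis, and 6 of the 10 with coordinates of their own were silent. Hoxb9 had 2448 bp and 2240 bp of H3K4me3 at 0.0773 and 0.0384 FPKM, Hoxc9 2142 bp and 1920 bp, and Hoxd10 2142 bp and 1760 bp. The posterior genes Hoxb13 and Hoxc12 were listed at 0 and unmarked. None of the 3 marked Hox genes had H3K36me3. T-box member Tbx1, a factor of the pharyngeal arches, differed from them, with regions of 3825 bp and 7360 bp and H3K36me3 over 89.6% and 100% of the locus, although it read 0 and 0.0230 FPKM and the nearest expressed locus was 30.0 kb away. Tbr1 had 28.5% and 100% of its locus under H3K36me3, with Psmd14 4.39 kb away at 27.1 FPKM in control. The limb factor Tbx5 was listed at 0 and unmarked.

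In the zinc finger group, Gfi1 had regions of 6732 bp and 6240 bp, Sp5 6273 bp and 5600 bp, and Sall1 6579 bp and 3360 bp. Sp5, a Wnt target, read 0 in control and 0.0188 FPKM after AngII, and H3K36me3 covered 0% and 94.0% of its locus. Gata4, a heart and gut factor, had 4437 bp and 1600 bp, and Wt1, a kidney and epicardium factor, 3060 bp and 2400 bp. Gata1 of red cells and Sp7 of bone were unmarked. Sox17, Sox18 and Sox7, all 3 known from endothelium, were marked with 2295, 1683 and 1530 bp in control and 2240, 1760 and 1760 bp after AngII. Sox17 and Sox18 were listed at 0. The endothelial genes Cdh5 and Emcn were silent and unmarked, so 2 of the 6 silent endothelial markers belonged to the set. Sox10 and Sox14 were unmarked.

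Secreted developmental ligands followed with 18 of 31 marked (58.1%, 39.1 to 75.5). Shh, the hedgehog morphogen, was listed at 0 in both libraries with a widest region of 7497 bp in control and 2880 bp after AngII. The deposited scores of these regions were low, at percentiles 8.44 and 9.49 of their lists. Wnt3 had 5661 bp and 6080 bp at 0.0130 and 0.0255 FPKM, and Wnt10a, at 0, had 3825 bp and 6400 bp at different ends of its locus. Fgf5, Fgf10, Bmp7, Ihh and Dkk1 were also members. Bmp5 and Wnt7b were the longest unmarked loci. H3K36me3 was at 2 of the 18 in each condition, beside 25.6% and 34.9% of all members.

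Genes of neurons formed a second large group. Potassium channels were marked in 25 of 45 silent genes (55.6%, 40.0 to 70.4), sodium and calcium channels in 9 of 18, ligand-gated channels in 23 of 44 (52.3%) and synaptic vesicle genes in 16 of 30 (53.3%). Median loci in these lists ran from 46212 to 75048 bp for members and from 13285 to 41427.5 bp for unmarked genes. Silent genes of any kind were marked in 38.3% from 20 to under 60 kb and in 60.5% at 60 kb or more. The part of locus length in the shares of these lists was not tested. Kcnn3, a calcium-activated potassium channel, had 3672 bp and 3520 bp at 0.0304 and 0.0149 FPKM, and Kcng3 3060 bp and 3040 bp at 0. Grin1, the obligate NMDA receptor subunit, had 3825 bp and 2720 bp. Bsn, a scaffold of the presynaptic active zone, had 4743 bp and 3680 bp at 0 and 0.00218 FPKM, with Apeh at 21.01 FPKM 1.94 kb away. Long unmarked channel genes were Kcnh7, Kcnq3, Scn10a, Gabrg3 and Gabrb1, and Snap25 was the longest unmarked vesicle gene.

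Further neural lists were drawn up after the members had been seen, so their counts carry no weight beyond naming the genes. Synaptic adhesion and scaffold genes were marked in 28 of 40, neurofilaments and peripherin in 4 of 4, and receptors of the Ntrk, Ret and Eph families in 8 of 8. Nefl read 0 and 0.0298 FPKM with regions of 1683 bp and 1440 bp. Nefh had 2907 bp and 1920 bp while listed at 0. Epha5, a guidance receptor, had 2448 bp and 1920 bp at 0 FPKM on a locus whose nearest expressed neighbour was 1694190 bp away. Ret, the receptor for glial cell-derived factors, had 3672 bp and 2400 bp at 0.0216 and 0.0554 FPKM. Axoneme and cilium genes, also drawn up afterwards, were marked in 19 of 29, and aquaporins and claudins in 7 of 20.

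Receptors for transmitters and peptides were nearer the overall share, with 28 of 82 marked (34.1%, 24.03 to 45.4), and so were solute carriers with 34 of 90 (37.8%, 27.8 to 48.6), protocadherins and cadherins with 6 of 14 and germ cell genes with 20 of 76 (26.3%, 16.9 to 37.7). Gpr84 had 4743 bp and 4800 bp, and the dopamine receptor gene Drd4 3825 bp and 3680 bp with H3K36me3 over 25.5% and 79.0% of its locus. Neuropeptides and peptide hormones were marked in 7 of 33 (21.2%, 8.98 to 38.9), among them Vgf with 3978 bp and 3680 bp. Pcdh17, a protocadherin, had 4896 bp and 5120 bp at 0 and 0.00799 FPKM and lay 2103 kb from the nearest expressed locus. The phosphate transporter gene Slc34a3 had 10098 bp and 8800 bp, a region that also came within 1 kb of an expressed locus in control, and the tubulin gene Tubb4b (177.5 FPKM in control) lay 4.00 kb away. Tssk1b and Tssk5, testis kinases, lay 1.61 kb and 0.095 kb from the expressed genes Dgcr2 and Hgh1.

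Most tissue-specific effector families were at the other end. Cytochrome P450 and UDP-glucuronosyl transferase genes were marked in 7 of 32 (21.9%, 9.28 to 40.0) and cytokines and chemokines in 11 of 58 (19.0%, 9.87 to 31.4). Both intervals span the 28.6% of all silent genes, as does that of the neuropeptides above. Serine proteases and serpins were marked in 4 of 42 (9.52%), lymphocyte and killer cell receptors in 8 of 90 (8.89%, 3.92 to 16.8), and defensins, lipocalins and urinary proteins in 4 of 81 (4.94%). With a count of 0, 3 counts of the total are taken as the limit. No keratin gene of 21, which allows a share of up to 14.3%, and no placental prolactin gene of 25, which allows up to 12%, was marked in both conditions. Olfactory receptors were the largest silent family with 546 genes and held no member, which allows a share of up to 0.549%. A single receptor gene of the vomeronasal, taste and trace amine list was a member, Vom1r90, 1 of 105. Outside these 2 chemosensory lists 33.9% of the 3141 silent genes with exactly 1 symbol were marked.

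Cyp26a1, which degrades retinoic acid, was the exception in the cytochrome list, with 9639 bp and 7520 bp at 0.0237 and 0.0232 FPKM. Its nearest expressed neighbour, Kif11, was 222.6 kb away. H3K36me3 covered 0% of its locus in control and 89.5% after AngII. The next cytochrome member, Cyp2d4, had 2754 bp and 2400 bp. Among cytokine genes, the neutrophil chemokines Cxcl2 and Cxcl6 were listed at 0 in both libraries with 1224 and 765 bp in control and 960 bp each after AngII. Il33, an alarmin, had 1683 bp and 1440 bp at 0.0680 and 0.0515 FPKM.

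Several genes known from vascular disease and inflammation were members without belonging to a leading family, and they were named after their values were seen. Nos2, the inducible nitric oxide synthase, was listed at 0 with 765 bp and 960 bp. Nos3, the endothelial one, read 0.0667 and 0.0278 FPKM with 1530 bp and 1440 bp. Mmp9, a gelatinase, had 1989 bp and 1280 bp at 0.0137 and 0 FPKM. The Notch ligand Dll4 had wider regions of 6579 bp and 5760 bp at 0 and 0.0113 FPKM. Spi1, the myeloid factor, had 1377 bp and 1280 bp, while Ptprc, the pan-leukocyte marker CD45, was silent and unmarked. In all, 324 members fell in one of the first 36 lists, and 676 members with exactly 1 symbol fell in no list. Another 106 members had no symbol in the RefSeq table.

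Regions at the members were narrower than at expressed genes. The widest region of each member had a median of 1683 bp in control (quartiles 1071 and 2754, up to 318240) and 1600 bp after AngII (1120 and 2560, up to 281760). The same medians were 2448 bp and 2560 bp for marked genes of 0.1 to under 1 FPKM, 3366 bp and 3360 bp from 1 to under 10, and 4437 bp and 4800 bp at 10 or more. All listed H3K4me3 regions, wherever they lay, had medians of 1836 bp and 1920 bp. Width at genes stood in the order of RNA level in both libraries. Regions of 4 kb or more were found at 11.6% of members in control and 9.69% after AngII, against 48.9% and 55.2% of marked genes of FPKM 1 or more. The deposited score of the region, the authors' own value, was at the median percentile 45.7 of its list in control and 44.4 after AngII for members, and at 80.9 and 80.8 for marked expressed genes. Loci marked in 1 condition only had regions of 918 bp (control only) and 800 bp (AngII only) at the median. Width and score belong to the readout that chose the members, so these values are a description. Region widths are whole multiples of a bin, which was slightly narrower in control than the 160 bp after AngII.

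**Figure D2:**
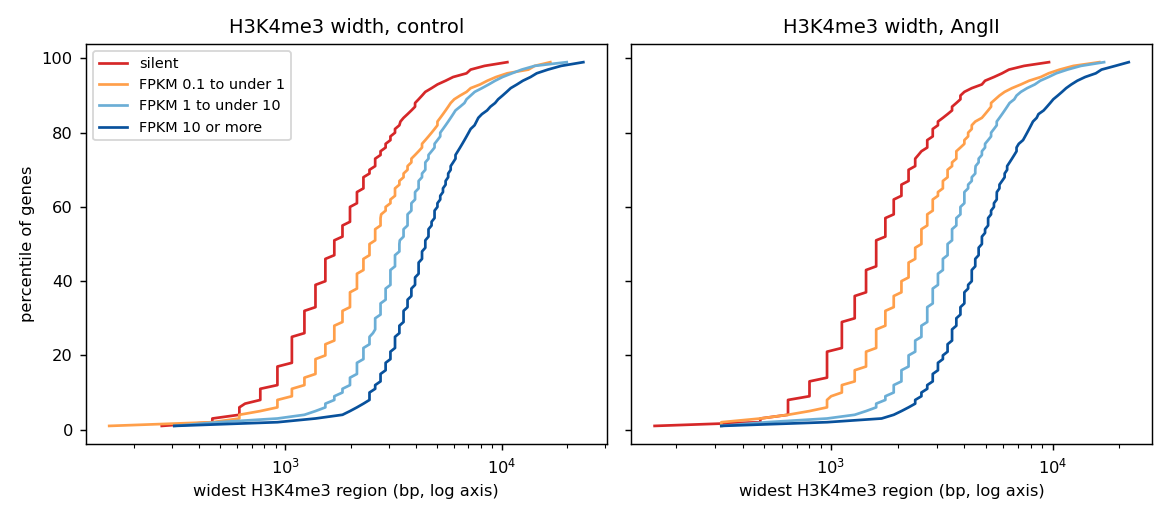
Distribution of the widest H3K4me3 region (bp, log axis) at marked genes, as the percentile of genes, in control (left) and after AngII (right), by RNA level. The red line of silent members lies left of the others, with medians of 1683 bp and 1600 bp against 4437 bp and 4800 bp for genes of FPKM 10 or more (dark blue).

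The widest members with a symbol were a mixed group. Kiss1r, the kisspeptin receptor gene, had 31977 bp in control and 7520 bp after AngII, and lay 1.78 kb from R3hdm4 at 58.6 FPKM in control. Ushbp1, 1.02 kb from Babam1, had separate regions on opposite sides of the locus, 13617 bp in control and 19360 bp after AngII. Of the others, Mamdc4 (10557 bp and 10240 bp) lay 1.05 kb from Edf1, Msmb (9180 and 11200) 2.10 kb from Ncoa4, Arhgap45 (9486 and 9440) 1.26 kb from Abca7 and Icam4 (9180 and 9120) 0.647 kb from Icam1. Otx1, Six3, Slc34a3 and Cyp26a1 completed the 10. Of these 10, Six3 and Cyp26a1 had no locus of FPKM 1 or more within 5.33 kb. Nat8l had 11628 bp in control and 2880 bp after AngII. At the narrow end, Actrt2, Bbox1, Caln1 and Fsd2 had a region of a single bin in each condition, and Cntn4 306 bp and 160 bp. A locus without a symbol (chr16:27273144-27989859, listed at 0 in both libraries) had regions of 318240 bp and 281760 bp and was covered by H3K36me3 over 100% of its length in both conditions. These were the widest regions of any member in either list.

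Members with an expressed neighbour had wider regions at the median. Another locus of FPKM 1 or more lay within 5 kb of 261 members (22.2%, 19.8 to 24.7) and of 192 unmarked silent genes (6.91%, 5.99 to 7.91). The median width was 2448 bp in control and 2400 bp after AngII at the 261 members with such a neighbour, and 1530 bp and 1600 bp at the 915 without. For 81 members (6.89%) every control region was also within 1 kb of an expressed locus, and their median width was 4131 bp against 1683 bp for the other 1095. Whether those regions belong to the silent gene or to its neighbour cannot be told apart.

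Regions of members lay inside the locus more often than those of expressed genes. Among 838 members with loci of 10 kb or more, at least 1 region came within 1 kb of a locus end in 76.5% in control and 76.0% after AngII. In the other 23.5% and 23.99% every region lay farther inside. The same interior share was 3.00% and 2.92% of 5541 marked genes of FPKM 1 or more. Over loci of any length, the upper quartile of length was 87869 bp for members and 56093.5 bp for those expressed genes. The part of locus length and region width in the interior shares was not tested. The table gives no strand, so the end at the start site cannot be told from the other end.

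**Figure D3:**
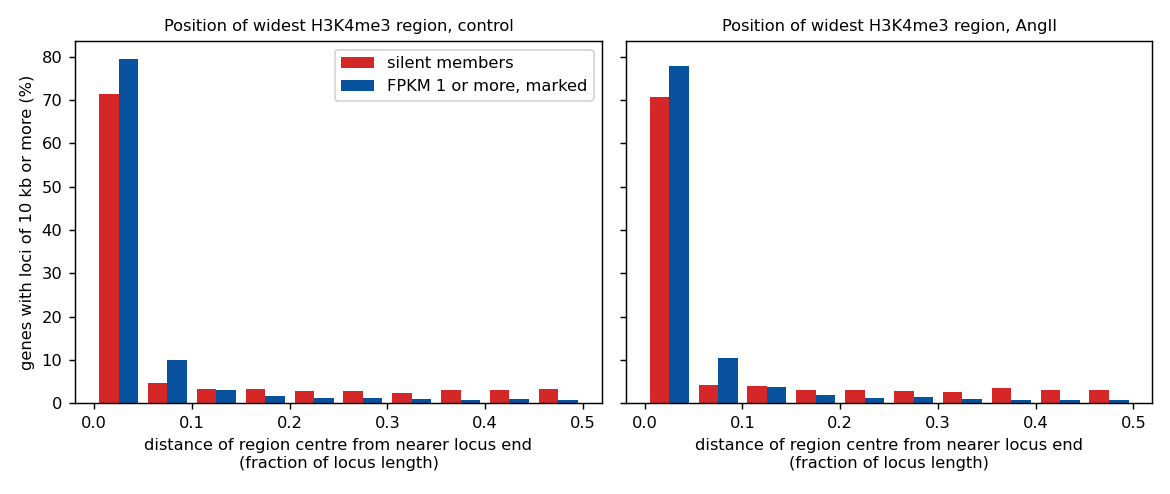
Position of the widest H3K4me3 region on loci of 10 kb or more, as the distance of its centre from the nearer locus end in fractions of the locus length, in control (left) and after AngII (right). Red bars are the 838 silent members and blue bars the 5541 marked genes of FPKM 1 or more; both peak at the end, and 71.4% of members and 79.6% of expressed genes fall in the first bin in control.

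The widest regions of the conditions overlapped at 1101 members (93.6%), and at the other 75 (6.38%) they were different regions. The median member had nearly the same width in both conditions. The log2 ratio of the widest region, AngII over control, had a median of -0.04 with quartiles of -0.27 and 0.20. At least 2-fold wider regions after AngII were found at 28 members (2.38%) and at least 2-fold narrower ones at 58 (4.93%), beside 2.94% and 2.83% of all marked genes. Over the 1101 members with overlapping regions the counts were 24 (2.18%) and 50 (4.54%), beside 2.79% and 2.60% of all marked genes with overlapping regions, and the medians were again 1683 bp and 1600 bp. Kiss1r, Gsc2 (7497 bp and 1600 bp), Hcn3 (10557 and 2080) and Pou4f2 (3519 and 800) were among the narrower ones. Pde8b (459 and 3840) and Rgs20 (2448 and 6240) were among the wider ones. Gzmm had 612 bp in control and 8000 bp after AngII in separate regions beyond opposite ends of the locus, and Cdc34 (21.8 FPKM in control) lay 0.952 kb away. These extremes were picked after their values were seen.

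**Figure D4:**
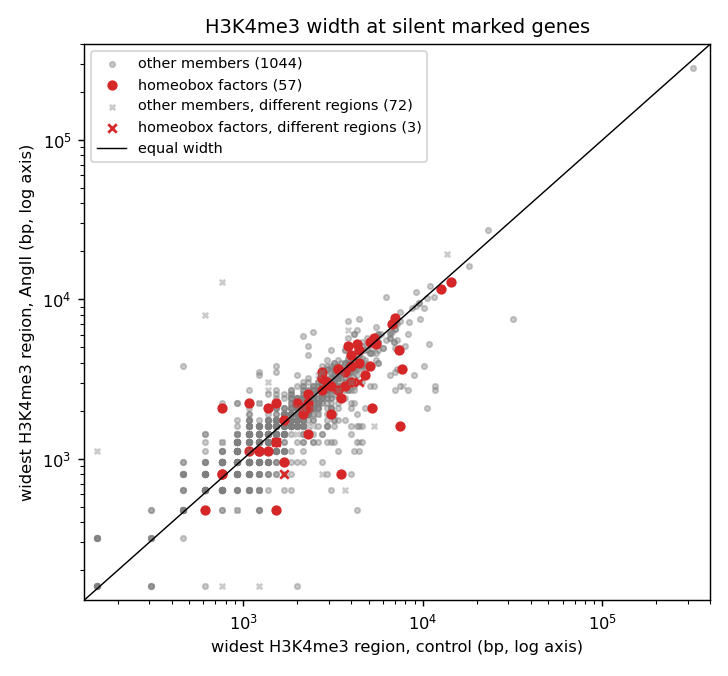
Widest H3K4me3 region of each of the 1176 members in control (x, bp, log axis) and after AngII (y, bp, log axis), with the 60 homeobox factors in red and the line of equal width in black. Crosses are members whose widest regions do not overlap between conditions. Most points lie near the line, and the steps at low widths are multiples of the bin of each list.

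H3K36me3, which the rule did not use, was found at a minority of members. A region touched 301 of 1176 members in control (25.6%, 23.1 to 28.2) and 411 after AngII (34.9%, 32.2 to 37.8), where 13.7% and 17.4% of all silent genes and 66.7% and 69.8% of all 15318 genes had one. Unmarked silent genes had H3K36me3 in 224 (8.06%, 7.07 to 9.13) and 251 (9.03%, 7.99 to 10.2) of 2780. Marked genes of FPKM 1 or more had it in 94.2% and 96.2%. With untouched loci counted as 0, H3K36me3 covered a mean of 3.91% and 8.98% of the member loci, 2.69% and 3.23% of unmarked silent loci, and 85.8% and 89.2% of marked expressed loci. Over touched loci alone the order was the other way, with a median cover of 3.28% and 9.87% of the longer member loci against 14.6% and 14.9% of unmarked ones. At least 50% of the locus was covered at 27 members in control (2.30%) and 79 after AngII (6.72%). Among unmarked silent genes the same held for 60 (2.16%) and 83 (2.99%), so in control the shares of the groups lay close together in this stricter count.

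Locus length and neighbours moved with the H3K36me3 share. Under 5 kb it was 11.7% of members against 4.15% of unmarked genes in control and 26.0% against 5.23% after AngII. At 60 kb or more it was 42.8% against 23.6% and 44.7% against 22.6%. Members with an expressed locus within 5 kb had H3K36me3 in 44.1% and 64.0%, and those without in 20.3% and 26.7%, where unmarked genes without such a neighbour had 6.26% and 6.49%. With both held fixed, the control difference was not seen for short loci. Without a neighbour and under 5 kb, 2.80% of 143 members (0.767 to 7.01) and 2.96% of 1147 unmarked genes (2.06 to 4.12) had the mark in control. From 5 to under 20 kb the values were 8.30% (5.07 to 12.7) and 5.82% (4.13 to 7.93), from 20 to under 60 kb 16.6% (11.8 to 22.3) and 13.1% (9.83 to 17.0), and at 60 kb or more 38.6% (33.3 to 44.0) and 21.7% (16.2 to 28.1). After AngII the same 4 classes gave 11.9%, 17.5%, 24.2% and 41.0% of members against 3.40%, 6.13%, 13.7% and 20.2% of unmarked genes. Under 5 kb the AngII intervals were 7.08 to 18.4 and 2.43 to 4.62, which did not overlap, unlike those in control. Members listed at 0 in both libraries had H3K36me3 in 20.2% and 26.5%, and unmarked genes listed at 0 in 5.37% and 6.03%.

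**Figure D5:**
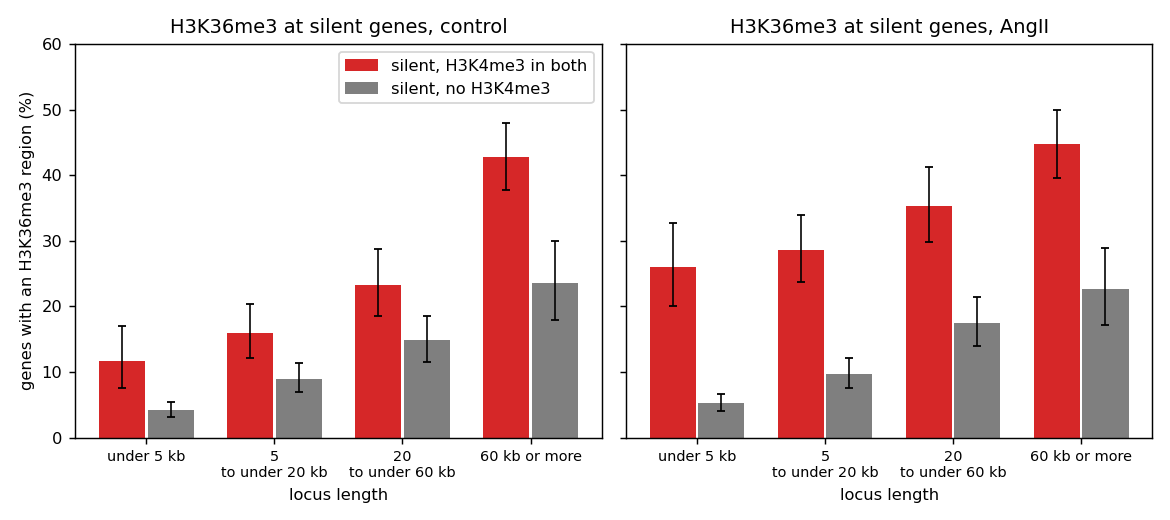
Percent of silent genes touched by an H3K36me3 region, by locus length, in control (left) and after AngII (right). Red bars are members, grey bars silent genes without H3K4me3, and whiskers 95% exact binomial intervals; the share rises with length in both groups, from 11.7% to 42.8% of members in control.

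More members had H3K36me3 after AngII only than in control only. It was found after AngII and not in control at 157 members (13.4%) and the reverse at 47 (4.00%), with 254 in both and 718 in neither. Over all 15318 genes these shares were 5.09% and 2.05%. A locus touched in control cannot gain the mark, and 66.7% of all genes were touched then against 25.6% of members. The shares therefore had unlike room to rise. Unmarked silent genes stood at 90 (3.24%) and 63 (2.27%), and marked genes of 0.1 to under 1 FPKM at 14.6% and 4.39%. Of the latter genes untouched in control, 163 gained the mark and 331 did not, where members had 157 and 718. The bins of the H3K36me3 lists also differed, 589 bp in control and 548 bp after AngII, and the part of this in the counts was not tested. Several named members went from no cover to most of the locus, among them Cyp26a1 and Sp5 given above, Icam4 (0% and 100%), Kiss1r (0% and 100%), Hes5 (0% and 100%) and Foxb2 (0% and 76.2%). Their RNA stayed under 0.1 FPKM by the rule. Hes5, a Notch target, lay 2.40 kb from the expressed gene Pank4, Icam4 and Kiss1r have close neighbours as given, and Foxb2, a forkhead factor, lay 104.1 kb from Vps13a.

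The members with the highest H3K36me3 cover and no expressed locus within 5 kb were Otx1, Klf14, Tbx1, Khdc3, Aadacl4fm1, C20h21orf58, Scgb1a1 and F12. Klf14, an imprinted Kruppel-like factor gene, was listed at 0 under 100% cover in both conditions, with H3K4me3 of 1530 bp and 800 bp and Copg2 52.3 kb away. Khdc3 had 79.8% and 100% at 0.0259 and 0.0505 FPKM. Scgb1a1, the secretoglobin of airway club cells, had 33.2% and 100% while listed at 0, and F12, coagulation factor XII, 35.6% and 84.4%. Scgb1a1 lay 6.17 kb from an unnamed locus of 538.1 FPKM in control. The widest members without H3K36me3 in either condition were Six3, Msmb, Slc34a3, Calhm1 and Nat8l.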

How the data were processed

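RNA abundance was deposited by the authors as FPKM with confidence bounds per locus. TopHat, Cufflinks and Cuffdiff for RNA, Bowtie for ChIP and the assembly rn4 are named, without versions, in the submitters' processing notes. The RNA tables of the 2 samples were identical and hold both conditions. Region lists were deposited by the authors with a score per region; what program called them is not stated in the labels or files, and sequencing depth is unknown. Loci and regions were joined in Python 3.11.15 (pandas 2.3.3, numpy 2.4.6), and the interval code was tested on simulated data. H3K36me3 counted when a region touched the locus. Symbols and promoters came from RefSeq GRCr8, whose coordinates were not mixed with rn4. Locus coordinates are as the RNA table gives them. Intervals are Clopper-Pearson. The members and gene lists were chosen with earlier results of these data known. Named genes are the widest and narrowest members, the 3 widest per list, those with most H3K36me3, the widest without it, those at the limits and the longest unmarked loci per list; other names were chosen after their values were seen, and some genes that the rule selects are left out of the text. Alternatives varied the FPKM limit, distance, region score, locus length and neighbours.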

Additional observations from a re-analysis of the deposited data

How the results depend on the processing

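Of the values recomputed, 99 stayed within their interval or within 1.5 times, while 40 moved. The 99 include values that could not move. Requiring an upper bound under 1 FPKM or no overlapping locus left out no gene. No member lay off the chromosomes with listed regions, so that setting could not change values of members alone. With an FPKM limit of 0.01 there were 549 members, 18.5% of silent genes were marked, median widths were 1530 bp and 1440 bp, H3K36me3 was at 19.9% and 27.5% of members and 5.61% and 6.30% of unmarked genes in control and after AngII, and 14.6% of members had an expressed neighbour. With a limit of 0.5 there were 1799 members, 35.2% were marked, the control width was 1989 bp, H3K36me3 was at 32.3% and 42.5% of members and 12.9% and 14.2% of unmarked genes, and 28.1% had an expressed neighbour. The marked share was 26.7% where the region had to touch the locus. Within 5 kb it was 34.3%, with 25.2% of members having an expressed neighbour and 1.47% of olfactory receptors marked. Without the 25% of H3K4me3 regions with the lowest score it was 22.97%, homeobox factors fell to 55.1%, and 10.5% of unmarked genes had H3K36me3 after AngII. For loci of 1 kb or longer it was 34.4%, with H3K36me3 at 10.01% and 11.3% of unmarked genes. Without genes that had an expressed locus within 5 kb it was 25.3%, the control width was 1530 bp and the AngII width 1600 bp, which turns their order, and H3K36me3 was at 20.3% and 26.7% of members and 6.26% and 6.49% of unmarked genes. On the chromosomes with listed regions, an alternative chosen after seeing the data, it was 30.4%. Keeping only members whose widest regions overlap between conditions, also chosen after seeing the data, left both median widths as they were. Summing all regions per locus gave 1989 bp and 1920 bp. Requiring H3K36me3 over 50% of the locus gave 2.30% and 6.72% of members and 2.16% and 2.99% of unmarked genes; the cause was not tested in any of these.

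No paired analysis was possible because there was 1 library per assay and condition, and leaving out a replicate was not possible either. The median CpG ratio over all members was not run, since too few promoters were in the table, and no own locus overlapped another, so leaving out overlapping loci changed nothing. Depth is unknown, and the number of fragments behind an FPKM near 0.1 was not worked out. The deposited bounds were wide there. Kcng2 at 0.0996 FPKM in control had an upper bound of 0.199, and Cbs at 0.0997 after AngII one of 0.190.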
